A study of Mus musculus with 12 samples.

Results

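The beta-2 leukocyte integrins and their ligand were followed through 5 genes of the 54532 in the deposited tables: Itgb2, Itgam, Itgal, Itgax and Icam1, found by symbol. All 5 passed the filter on low counts in every comparison. RNA-seq was performed on bone marrow macrophages (BMMs) from wild-type C57BL/6J mice aged 2 to 3 months, differentiated with the growth factor CSF-1, passaged onto normal or fibronectin pre-coated plates, and incubated for 24 h with 10 µg/ml of a neutralizing anti-ITGA5 antibody or of control IgG. Both antibodies were given on both surfaces, which made 4 groups of 3 libraries. All 4 groups therefore carried an antibody, and no group without antibody was analysed here. The study states serum and CSF-1 for the differentiation steps and does not give the medium of the 24 h incubation. The antibody binds the alpha-5 subunit of the fibronectin receptor and the gene itself is intact. The study calls its replicates independent experiments, the labels do not tie them to animals, and the p-values measure the spread between these libraries.

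Integrins are heterodimers of 1 alpha and 1 beta chain that connect the cytoskeleton to matrix or to other cells. The beta-2 chain, encoded by Itgb2 (CD18), is restricted to leukocytes and is shared by all heterodimers of its class: with Itgal (CD11a) it forms LFA-1, with Itgam (CD11b) it forms Mac-1, also called complement receptor 3, and with Itgax (CD11c) it forms p150,95. An alpha chain needs the beta-2 chain to reach the cell surface. Icam1 encodes an adhesion molecule of the immunoglobulin family that LFA-1 and Mac-1 bind, and that activated endothelium and macrophages induce. Itgam is a common marker of macrophages, and Itgax is high in dendritic cells and in some macrophages, such as those of the alveoli.

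In BMMs the transcript of the shared chain was the most abundant of the 5 in every library. Upon ITGA5 neutralization, Itgb2 and Itgam fell on both coatings, Itgax rose on both, Itgal fell without fibronectin, and Icam1 did not pass the test on either. Only the calls of Itgam on both coatings and of Itgb2 with fibronectin held under all 17 alternative analyses. Without fibronectin, the call was lost under 5 of 17 for Itgb2, 8 for Itgal and 4 for Itgax. With fibronectin, the Itgax call was lost under 7 of 17. On plain dishes Itgb2 fell by 12.9% and Itgam fell by 27.9%, on fibronectin Itgb2 fell by 18.8% and Itgam fell by 19.6%, whereas Itgax, the least abundant member, was 1.92-fold higher without fibronectin and 1.36-fold higher with fibronectin. Fibronectin itself raised Itgb2 in IgG, by 14.2%, a call that was lost under 8 of 17 alternatives.

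Gene counts summed to 12954342 to 22075432 in a library. The second anti-ITGA5 library without fibronectin stood apart: it had the lowest total and the most genes with a count, 21123 against at most 20426 in the other 11 libraries, and its chi-square per gene was 13.7 and 23.0 against the other replicates of its group, which differed from each other by 10.4, against 2.65 to 7.45 between replicates of the other 3 groups. For the 5 genes, fold changes on plain dishes are given with and without it. The cells carried macrophage markers: all 7 genes of that list (Csf1r, Adgre1, Cd68, Lyz2, Mertk, Fcgr1, Cd14) were tested. On plain dishes their summed level was 13200 to 14400 CPM (counts scaled to library total) with IgG and 9930 to 11500 CPM with the neutralizing antibody, and on fibronectin 13800 to 14000 and 11300 to 11400 CPM. Lyz2 alone made up 9360 to 10400 and 6380 to 7710 CPM of the sum on plain dishes, and 9990 to 10200 and 7450 to 7650 CPM on fibronectin. The other 6 markers summed to 3880 to 3910 and 3550 to 3800 CPM on plain dishes, and to 3770 to 3810 and 3710 to 3840 CPM on fibronectin, where they overlapped. Of other cell types, 7 dendritic cell markers to 0.611 to 1.78 CPM, 6 lymphocyte markers to 0.217 to 0.687 CPM with Cd3g and Ncr1 at 0, and 7 fibroblast and endothelial markers to 17.9 to 27.6 CPM, of which Kdr alone held 249 to 396 counts per library and Dcn and Pdgfra at most 5 and 3. The 8 neutrophil markers, with Ly6g at 0 in all libraries, summed to 1.84 to 3.63 CPM with IgG and 2.47 to 3.01 CPM with the neutralizing antibody on plain dishes, and to 2.72 to 3.91 and 1.68 to 2.51 CPM on fibronectin, where these groups did not overlap.

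All 5 genes lie on the plus strand of GRCm38. Itgb2 (ENSMUSG00000000290) spans chr10:77530252-77565708 and Icam1 (ENSMUSG00000037405) spans chr9:21015985-21028817. The alpha genes share chromosome 7: Itgal (ENSMUSG00000030830) at chr7:127296260-127335138, Itgam (ENSMUSG00000030786) at chr7:128062640-128118491 and Itgax (ENSMUSG00000030789) at chr7:128129547-128150657. Itgax begins 11055 bases after the end of Itgam, and the fourth alpha gene of the class, Itgad, begins 3718 bases after Itgax. Icam4 lies 555 bases after Icam1.

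Annotation limits the levels of Itgam and, less, of Icam1. In GENCODE M21, the gene Gm49368 (chr7:128062683-128128160, plus strand) covers 3450 of the 5024 exonic bases of Itgam, 68.7%, and the table gives it 0 to 3 counts per library. Reads on the shared exons were therefore not counted on Gm49368, and if they were not counted on Itgam either, the FPKM of Itgam, which use the full length of 5024 bases, are up to 3.19 times too low. Its fold changes compare the same exons in every library. Icam1 shares 511 of its 4360 exonic bases with the antisense gene Gm47079, which had 0 to 4 counts per library, so that the FPKM of Icam1 could be up to 1.13 times too low in the same way. For Itgax, 8.02% of its 50-base words also occur in Itgad, which had at most 2 counts. Of the words of Icam1, 13.1% occur in other genes, 881 in all. Itgal shared no such word with any other gene, and Itgb2 1.05% with Gm14699.

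RefSeq promoter windows on GRCm38.p6 were found for 3 of the 5 genes, Itgam, Itgax and Icam1, and Itgb2 and Itgal had no entry. They are shown because Itgam and Itgax are neighbours that moved in opposite directions, while Icam1 did not pass the test. Each runs from 250 bases before to 30 bases after the RefSeq start, 5′ to 3′ on the plus strand, at chr7:128062390-128062669, chr7:128129300-128129579 and chr9:21015690-21015969. Capitals mark matches, on either strand, to the core site of the myeloid factor PU.1 (GAGGAA), the GC box with letters GGGCGG, the NF-kB site GGAAATTCC, the STAT site TTCNNNGAA and the letters TATAAA of a promoter box named after them, the TATA box.
Itgam: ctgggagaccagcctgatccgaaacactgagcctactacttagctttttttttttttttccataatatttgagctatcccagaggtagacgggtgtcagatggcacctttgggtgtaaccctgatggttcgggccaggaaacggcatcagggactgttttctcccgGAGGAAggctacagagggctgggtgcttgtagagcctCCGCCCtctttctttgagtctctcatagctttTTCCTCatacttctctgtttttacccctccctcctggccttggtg
Itgax: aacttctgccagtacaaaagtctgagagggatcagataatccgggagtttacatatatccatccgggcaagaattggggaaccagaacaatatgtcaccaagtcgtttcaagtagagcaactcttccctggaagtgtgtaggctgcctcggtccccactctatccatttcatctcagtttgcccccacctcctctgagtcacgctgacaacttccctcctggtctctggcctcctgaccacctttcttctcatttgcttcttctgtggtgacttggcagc
Icam1: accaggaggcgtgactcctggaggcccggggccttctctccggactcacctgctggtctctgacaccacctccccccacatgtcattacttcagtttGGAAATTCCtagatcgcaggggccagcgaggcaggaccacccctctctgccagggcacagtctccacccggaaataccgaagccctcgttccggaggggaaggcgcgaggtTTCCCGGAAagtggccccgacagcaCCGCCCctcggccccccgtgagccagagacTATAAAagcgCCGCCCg
The Itgam window held GAGGAA 84 bases before the start and its reverse complement 15 bases before it, with a GC box between them and no TATA box. The Icam1 window held the NF-kB letters 153 bases and the STAT letters 42 bases before the RefSeq start. It also held 2 GC boxes and a TATA box that begins 13 bases after that start but 32 bases before the start in the deposited table. None of the 5 motifs was in the Itgax window. Over 32851 RefSeq windows of the same length, GAGGAA was in 26.0%, GGGCGG in 34.7%, GGAAATTCC in 0.307%, TTCNNNGAA in 7.83% and TATAAA in 13.1%. The motifs were chosen with these sequences in view, and the matches describe letters, not binding.

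Levels between genes were compared as FPKM, which divide each count by gene length. Itgb2 was the most abundant member in all 12 libraries, at 260.9 to 364.9 FPKM. Itgam followed at 38.3 to 61.6 FPKM, Itgal at 11.7 to 17.9 FPKM, Icam1 at 8.03 to 11.2 FPKM and Itgax at 0.795 to 2.59 FPKM. This order held in 12 of 12 libraries, and also when Itgam was divided only by the length it does not share with Gm49368. On that shorter length, Itgam in IgG without fibronectin was at 187.5 ± 7.99 FPKM (SD, n = 3) in place of 58.7 ± 2.50 FPKM. Behind these values were 10965 to 23884 counts for Itgb2, 2652 to 6466 for Itgam, 1063 to 2382 for Itgal, 492 to 1064 for Icam1 and 66 to 232 for Itgax.

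**Figure D1:**
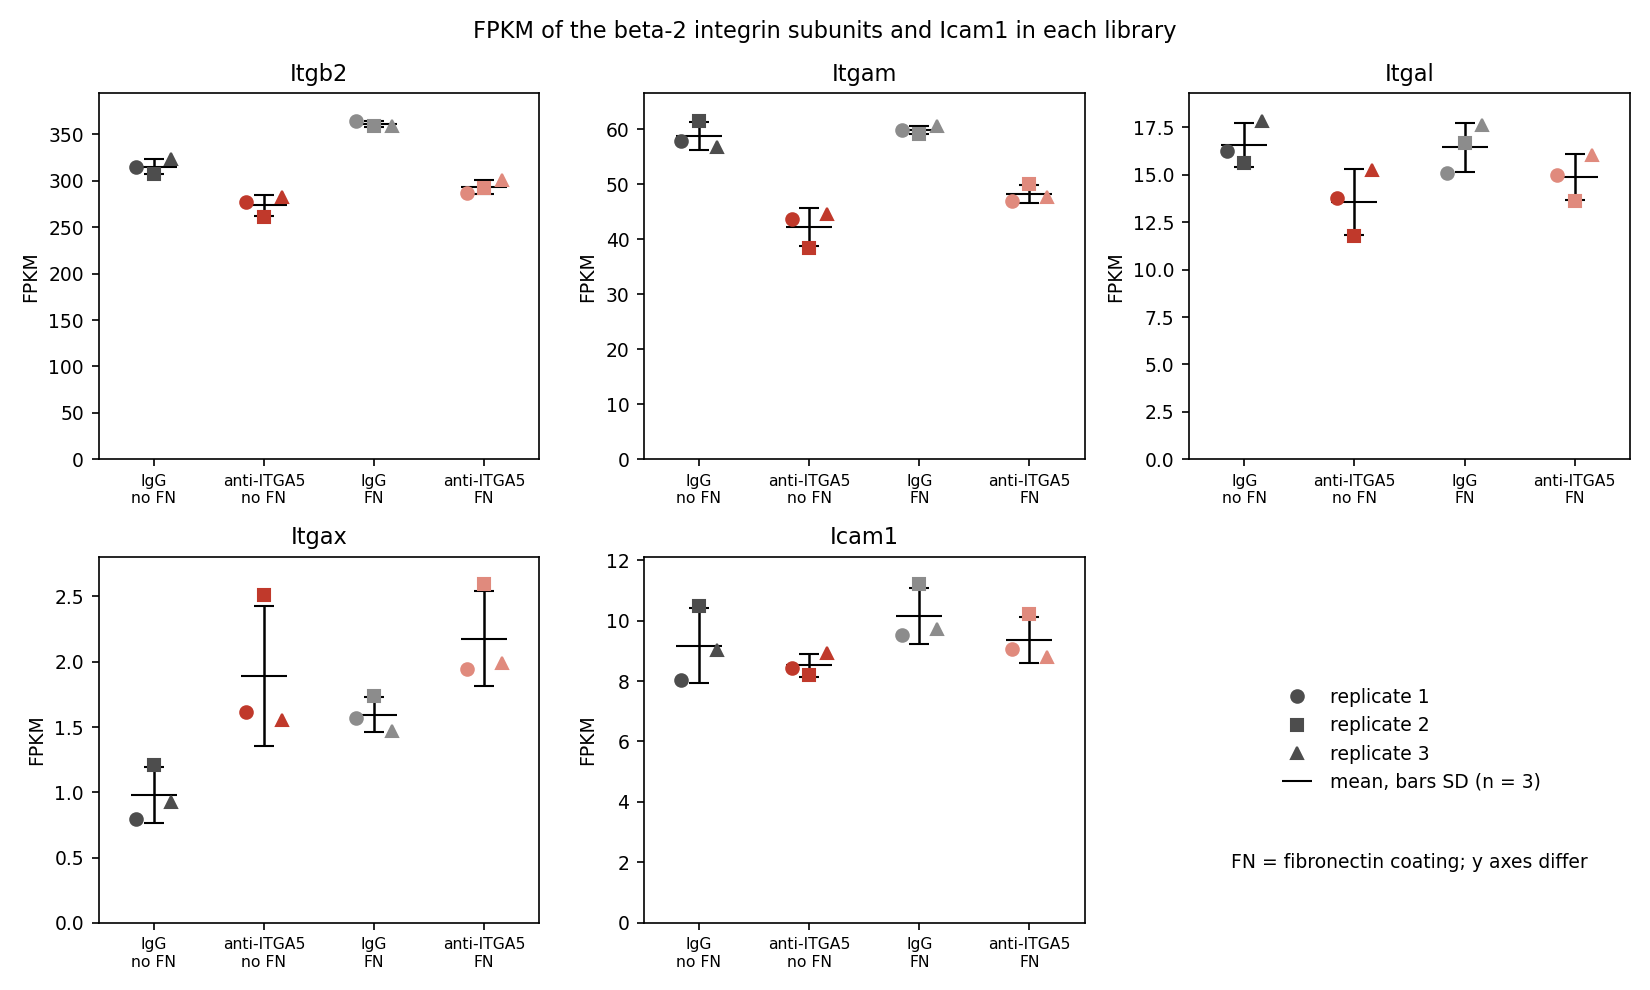
FPKM (y axis, from 0, a different scale in each panel) of each member in the 12 libraries, by group on the x axis. Symbols are replicates, horizontal lines are means and bars are SD (n = 3); Itgb2 and Itgam lie lower and Itgax higher in the anti-ITGA5 libraries than in the IgG libraries of the same coating, with no overlap, and the Icam1 groups overlap.

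The first comparison asked what blocking ITGA5 did to the shared chain. In IgG without fibronectin, Itgb2 was at 315.4, 306.8 and 323.0 FPKM. In anti-ITGA5 without fibronectin it was at 276.7, 260.9 and 282.8 FPKM. All 3 libraries with the neutralizing antibody were below all 3 with IgG. Itgb2 fell by 12.9%, a log2 fold change of -0.20 (standard error, SE, 0.0507, with a Benjamini-Hochberg adjusted p of 0.0186 in the quasi-likelihood test of edgeR, which gave all adjusted p-values here unless another tool is named). Here 20.8% of the 12924 genes tested were called, and FPKM of the groups did not overlap for 38.2% of them. With fibronectin, Itgb2 was at 364.9, 359.5 and 359.1 FPKM in IgG and at 287.0, 292.2 and 301.3 FPKM upon ITGA5 neutralization. The groups were again apart. Itgb2 fell by 18.8%, a log2 fold change of -0.30 with an SE of 0.0363 (adjusted p = 7.19e-05, edgeR), where 27.6% of 12916 genes were called and 42.4% had groups without overlap. The call with fibronectin held under all 17 alternatives. The call without fibronectin was lost without IgG replicate 1 (adjusted p = 0.0897), IgG replicate 3 (0.0905) or anti-ITGA5 replicate 1 (0.0625), and held without the library that stood apart, with a log2 fold change of -0.17 (adjusted p = 0.0039, edgeR).

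Itgam, the Mac-1 alpha chain, had the largest fall of the members without fibronectin. It was at 57.9, 61.6 and 56.8 FPKM in IgG and at 43.7, 38.3 and 44.6 FPKM upon ITGA5 neutralization. The highest library with the neutralizing antibody lay well under the lowest with IgG. Itgam fell by 27.9%, a log2 fold change of -0.47 with an SE of 0.0623 (adjusted p = 0.000462, edgeR). With fibronectin, Itgam was at 59.9, 59.1 and 60.6 FPKM in IgG and at 47.0, 49.97 and 47.7 FPKM upon ITGA5 neutralization. These groups did not overlap either, and the IgG libraries had an SD of 0.748 FPKM. Itgam fell by 19.6% there, a log2 fold change of -0.31 with an SE of 0.0400 (adjusted p = 0.00011, edgeR). Both calls held under all 17 alternatives. Without the library that stood apart, the log2 fold change without fibronectin was -0.41 (adjusted p = 4.56e-06, edgeR).

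Itgal, the LFA-1 alpha chain, was at 16.3, 15.6 and 17.9 FPKM in IgG and at 13.8, 11.7 and 15.2 FPKM upon ITGA5 neutralization without fibronectin. The groups did not overlap, but the highest library with the neutralizing antibody was close to the lowest with IgG. Itgal fell by 17.7%, a log2 fold change of -0.28 with an SE of 0.0850 (adjusted p = 0.0396, edgeR). With fibronectin, Itgal was at 15.1, 16.7 and 17.6 FPKM in IgG and at 15.0, 13.6 and 16.04 FPKM upon ITGA5 neutralization, and the groups overlapped. The log2 fold change was -0.15 (95% confidence interval -0.30 to 0.00012, adjusted p = 0.13, edgeR), an interval of -18.5% to 0.00863% in percent change. Of the 3 alpha chains, Itgal gave the least stable call: without fibronectin it was lost with total counts in place of TMM (adjusted p = 0.054) and without IgG replicate 1, 2 or 3 or anti-ITGA5 replicate 1 (0.114, 0.0678, 0.174 and 0.105), and held without the library that stood apart (log2 fold change -0.19, adjusted p = 0.0282). With fibronectin the call was gained under 2 of 17 alternatives, among them without anti-ITGA5 replicate 3 (log2 fold change -0.20, adjusted p = 0.0243, edgeR).

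Itgax moved the other way. In IgG without fibronectin, this p150,95 alpha chain was at 0.795, 1.21 and 0.926 FPKM, from 66 to 103 counts. Upon ITGA5 neutralization it was at 1.61, 2.51 and 1.55 FPKM, from 136 to 166 counts. The second anti-ITGA5 library, which stood apart in depth, was the highest. The log2 fold change was 0.94 (SE 0.219, 95% confidence interval 0.45 to 1.42, adjusted p = 0.0123, edgeR), and 0.69 without that library (adjusted p = 0.00724). With fibronectin, Itgax was at 1.57, 1.74 and 1.47 FPKM in IgG and at 1.94, 2.59 and 1.99 FPKM upon ITGA5 neutralization. The groups did not overlap, and the gap between them was narrow. The log2 fold change was 0.44 (SE 0.133, 95% confidence interval 0.15 to 0.73, adjusted p = 0.0264, edgeR). The call without fibronectin was lost without IgG replicate 1 or 3 (adjusted p = 0.066 and 0.062) and with limma on log2(FPKM + 1) (log2 fold change 0.54, adjusted p = 0.0603). With fibronectin it was lost without IgG replicate 1 or 3 or anti-ITGA5 replicate 2 (0.0837, 0.0925 and 0.118), with limma (0.29, adjusted p = 0.0785) and with all 12 libraries in one fit (adjusted p = 0.0943). The 7 dendritic cell markers summed to 20 to 24 counts in the IgG libraries on plain dishes and 11 to 24 in the anti-ITGA5 libraries there. On fibronectin they summed to 18 to 22 and 10 to 21 counts. Whether such cells contributed to the rise of Itgax was not tested.

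Icam1, the ligand, stayed within the spread of its replicates. It was at 8.03, 10.5 and 9.01 FPKM in IgG and at 8.43, 8.19 and 8.92 FPKM upon ITGA5 neutralization without fibronectin. With fibronectin it was at 9.52, 11.2 and 9.72 FPKM in IgG and at 9.07, 10.2 and 8.79 FPKM upon ITGA5 neutralization. The groups overlapped on both coatings. The log2 fold changes were -0.10 (95% confidence interval -0.30 to 0.10, adjusted p = 0.482) and -0.12 (-0.29 to 0.05, adjusted p = 0.286, edgeR). As percent changes these intervals run from -18.9% to 7.19% and from -18.2% to 3.55%. Without the library that stood apart, the log2 fold change on plain dishes was -0.08 (adjusted p = 0.542, edgeR). Without IgG replicate 2 the small difference without fibronectin changed sign, to a log2 fold change of 0.0053.

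In the antibody comparisons, which do not share libraries with each other, 3 of the 5 members were called lower and 1 higher on plain dishes, and 2 lower and 1 higher on fibronectin, beside 20.8% and 27.6% of all genes called. Exact permutation tests of FPKM (2-sided) gave p = 0.10 for each comparison whose groups did not overlap, the smallest that 3 libraries against 3 allow, with p = 0.20 for Itgal with fibronectin and p = 0.60 and 0.40 for Icam1. In bulk RNA, fewer cells of a type and less RNA per cell cannot be told apart. Of the 7 macrophage markers, 3 were also lower (Cd68, Lyz2 and Mertk) and Cd14 was higher on each coating, whereas Csf1r (log2 fold change -0.12 without and -0.02 with fibronectin) and Adgre1 (0.02 and 0.10), which encodes F4/80, were not called, nor was Fcgr1 (-0.30 and -0.14). Of the 8 neutrophil markers, 2 were tested with fibronectin and Mpo was lower there (log2 fold change -0.94, adjusted p = 0.0499), at 18 to 21 counts in IgG and 9 to 11 upon ITGA5 neutralization. The part of these shifts in the falls of Itgb2, Itgam and Itgal was not tested.

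**Figure D2:**
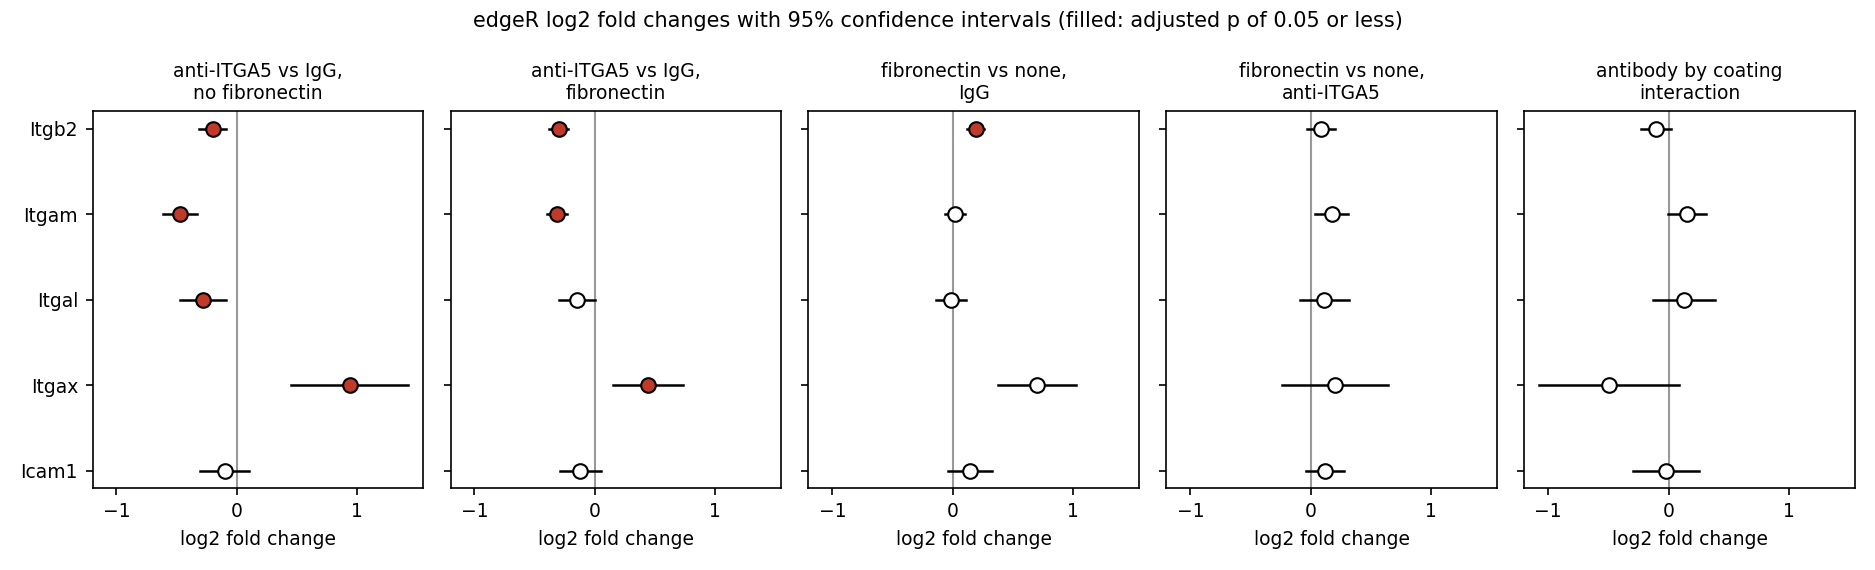
Log2 fold changes of the 5 members (circles, x axis) with their 95% confidence intervals (lines) in the 4 comparisons and the interaction, filled where the adjusted p is 0.05 or less. Under ITGA5 neutralization Itgb2 and Itgam lie left of 0 and Itgax right of 0 on both coatings, Itgb2 alone is filled for fibronectin in IgG, and no interaction is filled.

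The next comparison asked what the fibronectin coating did to the same genes. It uses the IgG libraries and, separately, the anti-ITGA5 libraries, so that each group also serves in an antibody comparison. In IgG, Itgb2 rose from 315.1 ± 8.11 to 361.2 ± 3.24 FPKM (SD, n = 3 each) on fibronectin, with no overlap and a log2 fold change of 0.19 with an SE of 0.0339 (adjusted p = 0.0178, edgeR). Only 0.449% of 12925 genes, 58 in all, were called in this comparison, and 15.4% had groups without overlap. The call was lost without IgG replicate 1 or 2 on plain dishes (adjusted p = 0.204 and 0.0692) and without IgG replicate 1 or 3 on fibronectin (0.13 and 0.0613). Itgax had a larger log2 fold change, 0.70 (SE 0.153, 95% confidence interval 0.38 to 1.02), with groups that did not overlap, but an adjusted p of 0.0598. It passed the threshold under 4 of 17 alternatives, among them without IgG replicate 2 on plain dishes (log2 fold change 0.89, adjusted p = 0.0234, edgeR). Itgam was almost level, at 58.7 ± 2.50 and 59.9 ± 0.748 FPKM, with a log2 fold change of 0.02 (95% confidence interval -0.06 to 0.10, adjusted p = 0.902). Itgal had a log2 fold change of -0.02 (-0.14 to 0.11, adjusted p = 0.959) and Icam1 of 0.14 (-0.04 to 0.32, adjusted p = 0.624). The sign of the Itgal value turned without IgG replicate 3 on plain dishes (0.04) or IgG replicate 1 on fibronectin (0.04).

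Upon ITGA5 neutralization, no member was called between fibronectin and plain dishes. Itgam was at 42.2 ± 3.39 FPKM without and 48.2 ± 1.56 FPKM with fibronectin (SD, n = 3 each), with no overlap and a log2 fold change of 0.18 (95% confidence interval 0.04 to 0.31, adjusted p = 0.979, edgeR). Itgb2 was at 273.4 ± 11.3 and 293.5 ± 7.24 FPKM, also without overlap, with a log2 fold change of 0.09 (-0.03 to 0.20). Itgal, Itgax and Icam1 had log2 fold changes of 0.11, 0.20 and 0.12, and their groups overlapped. Of 12863 genes, 0% were called by edgeR, 461 had an unadjusted p under 0.05, DESeq2 called 5, and 9.74% had groups without overlap. Without the library that stood apart, the values were 0.12 for Itgam, 0.06 for Itgb2, 0.03 for Itgal, 0.45 for Itgax and 0.10 for Icam1, and edgeR again called 0 genes.

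Whether the coating altered the effect of the antibody was tested as an interaction over all 12 libraries, on the log2 scale and as the antibody difference with fibronectin minus that without. It was -0.10 for Itgb2 (95% confidence interval -0.23 to 0.02), 0.15 for Itgam (-0.0041 to 0.31), 0.13 for Itgal (-0.13 to 0.39), -0.49 for Itgax (-1.07 to 0.09) and -0.02 for Icam1 (-0.30 to 0.25). None was called (adjusted p of 1 after rounding for each, edgeR), and 0.0223% of 13455 genes were. The fall of Itgal that passed the threshold without fibronectin and not with it was therefore not shown to differ between coatings, and neither was the rise of Itgax. Without the library that stood apart the interaction was -0.13 for Itgb2, 0.10 for Itgam, 0.05 for Itgal, -0.25 for Itgax and -0.04 for Icam1, and none was called.

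The groups ordered differently by gene. Itgb2 was highest in IgG with fibronectin, then IgG without fibronectin, anti-ITGA5 with fibronectin and anti-ITGA5 without fibronectin, and no neighbours in that order overlapped. Itgam had the same order, but its IgG groups overlapped each other. Itgax had both anti-ITGA5 groups first, from 2.18 ± 0.364 FPKM in anti-ITGA5 with fibronectin through 1.89 ± 0.536 and 1.59 ± 0.136 to 0.978 ± 0.213 FPKM in IgG without fibronectin (SD, n = 3 each), where the lowest group alone was clear of its neighbour. For Itgal and Icam1, all neighbouring groups overlapped.

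Because the alpha chains share 1 beta chain, their balance was described as shares of their summed FPKM. Itgam made up 77.0 ± 1.71% of the alpha transcripts with IgG and 73.2 ± 0.700% with the neutralizing antibody on plain dishes, and 76.8 ± 1.21% and 73.9 ± 1.52% on fibronectin (SD, n = 3 each). Itgal made up 21.1% to 23.5% in the group means. Itgax made up 1.28 ± 0.247% and 3.34 ± 1.24% without fibronectin, and 2.05 ± 0.200% and 3.33 ± 0.514% with fibronectin. In the library that stood apart it was 4.77%, and in the other 2 anti-ITGA5 libraries on plain dishes 2.73% and 2.53%. The minor chain thus took a larger share in each anti-ITGA5 group than in the matching IgG group, with no overlap. The ratio of Itgam to Itgax was 72.8, 50.8 and 61.3 in IgG and 27.1, 15.3 and 28.7 upon ITGA5 neutralization without fibronectin. With fibronectin it was 38.1, 34.0 and 41.2 in IgG and 24.2, 19.3 and 24.0 upon ITGA5 neutralization. In IgG the ratio was lower on fibronectin than on plain dishes in every library. Over Itgam's unshared length the shares shift to 91.4% Itgam, 8.11% Itgal and 0.475% Itgax in IgG without fibronectin, and to 89.7%, 9.02% and 1.28% upon ITGA5 neutralization.

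Itgb2 exceeded the summed alpha chains 4.13 ± 0.192-fold in IgG and 4.75 ± 0.186-fold in anti-ITGA5 without fibronectin, and 4.64 ± 0.133-fold and 4.50 ± 0.0853-fold with fibronectin (SD, n = 3 each). The ratio was lowest in the 3 IgG libraries without fibronectin, at 4.21, 3.91 and 4.28. Over Itgam's unshared length these ratios fall to 1.54 ± 0.0909, 1.82 ± 0.0740, 1.73 ± 0.0346 and 1.72 ± 0.0537. The excess of Itgb2 over its partners thus remains in each group mean, but its size rests on how reads in the shared exons were counted.

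**Figure D3:**
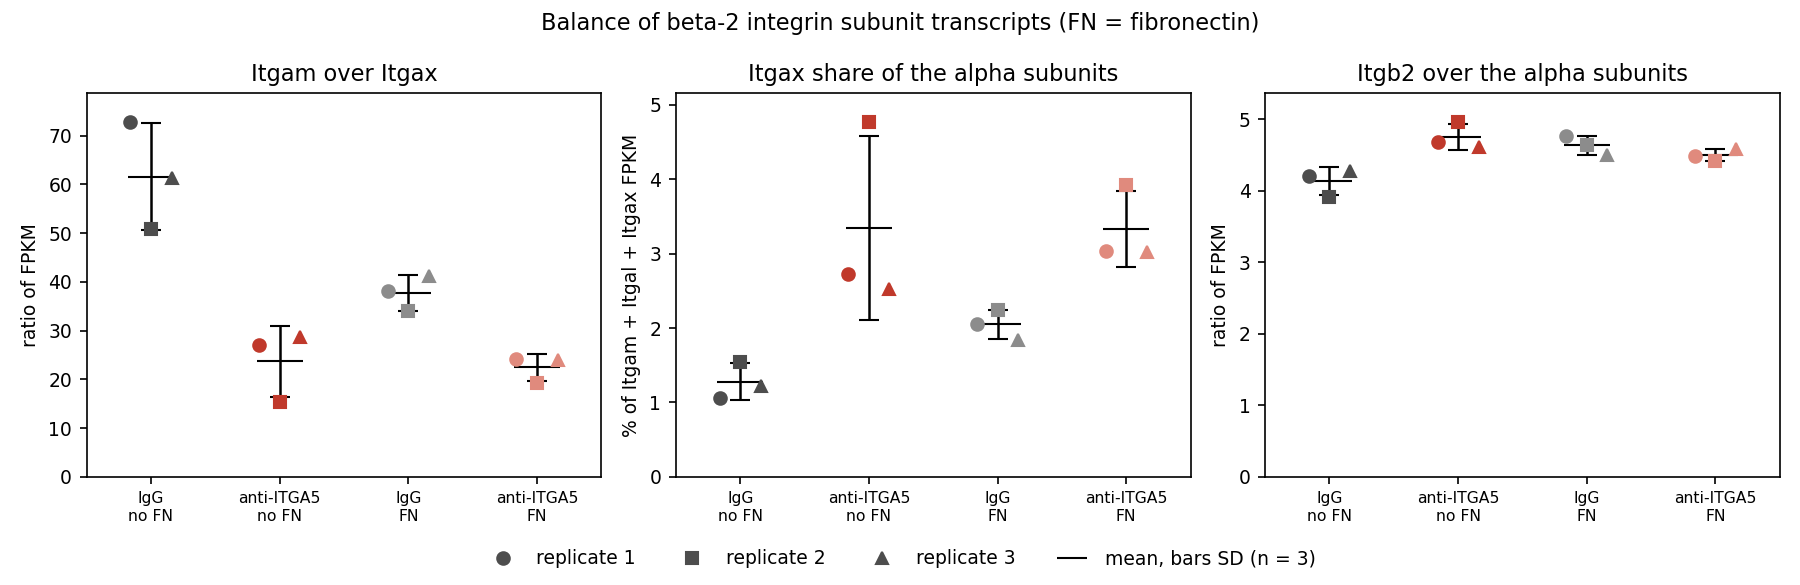
Ratio of Itgam to Itgax FPKM (left), share of Itgax among the summed FPKM of Itgam, Itgal and Itgax in percent (middle) and ratio of Itgb2 to that sum (right), for each library by group. Symbols are replicates, lines are means and bars are SD (n = 3); the Itgam to Itgax ratio is highest in IgG without fibronectin, at 50.8 to 72.8, and at most 28.7 in the anti-ITGA5 libraries.

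Across the 12 libraries, log2 CPM of Itgb2 and Itgam correlated with Pearson's r = 0.875, Itgam and Itgal with 0.767 and Itgb2 and Itgal with 0.734. Itgax ran against the other chains, with r = -0.638 for Itgal, -0.587 for Itgam and -0.358 for Itgb2. Icam1 correlated with Itgam at 0.579, with Itgb2 at 0.565, with Itgal at 0.346 and with Itgax at 0.179. The libraries share 4 groups and their depth, so that these values describe the groups as much as single libraries. The most similar patterns were sought by r among 11685 genes whose counts were 10 or more throughout. For Itgb2 they were Rnh1 (0.984), a ribonuclease inhibitor, Mcl1 (0.982), a survival factor of the Bcl-2 family, and Esd (0.977). For Itgam they were the ferritin heavy chain Fth1 (0.988), Agfg2 (0.985) and Ube2l3 (0.981). For Itgal they were Snx9 (0.953), Ap1b1 (0.946) and Mief2 (0.934), and for Itgax Slc2a6 (0.913), Aunip (0.912) and Clec4e (0.910), which encodes the C-type lectin Mincle. The pattern of Icam1 was shared least, with Ephx1 at 0.926, Zbtb8a at 0.879 and Rabif at 0.876, and r over 0.9 in 0.00856% of genes against 2.88% for Itgam.

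Of 7 genes for the fourth alpha chain and further ligands, 3 were tested. Itgad had at most 2 counts in any library, Thy1 at most 2, and Icam4 0 in all 12. Icam2, a second LFA-1 ligand, was at 6.59 ± 0.615 FPKM in IgG and 8.90 ± 0.746 FPKM upon ITGA5 neutralization without fibronectin (SD, n = 3 each), a log2 fold change of 0.44 (adjusted p = 0.0106, edgeR). With fibronectin it was 0.32 (adjusted p = 0.0551). C3, the complement component whose fragment iC3b is bound by Mac-1, was lower without fibronectin (log2 fold change -0.67, adjusted p = 0.0239), with a value of -0.28 with fibronectin (adjusted p = 0.185). F11r, the junctional LFA-1 ligand JAM-A, was at 11 to 43 counts and was not called. Leaving out the library that stood apart, 1 of the 3 was again higher and 1 lower on plain dishes, where 20.8% of all genes were called with that library and 29.1% without it. The median log2 fold change of the 3 was -0.04 without fibronectin, beside 0.0090 over all genes tested, and -0.28 with fibronectin, beside -0.0038.

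All 15 genes that activate or restrain integrins from inside the cell, by the talin and Rap1 route, were tested, with 2 higher and 5 lower without fibronectin and 3 higher and 2 lower with it, beside 20.8% and 27.6% of all genes called. With the library of lowest depth, which stood apart, left out, 3 were higher and 5 lower on plain dishes, where 29.1% of all genes were called. Fyb, the adaptor ADAP, was higher on both (log2 fold changes 0.22 and 0.20, adjusted p = 0.00862 and 0.00182, edgeR). Cyth1, or cytohesin-1, which binds the beta-2 tail, was lower on both (-0.40 and -0.44, adjusted p = 0.0109 and 0.00207). Apbb1ip, the Rap1 effector RIAM, was lower without fibronectin (-0.25, adjusted p = 0.00461), with a value of -0.10 with it (adjusted p = 0.0698). Sipa1, which switches Rap1 off, was lower on both (-0.22 and -0.21, adjusted p = 0.0146 and 0.00259). Of the other called restrainers, Itgb1bp1, or ICAP-1, was higher without fibronectin (0.25, adjusted p = 0.0421, and 0.16 with it, adjusted p = 0.154). Sharpin was higher with fibronectin (0.23, adjusted p = 0.0128, and 0.20 without it, adjusted p = 0.0566). Of the other called activators, Fermt3 and Rasgrp2 were lower without fibronectin (-0.16 and -0.58, adjusted p = 0.0451 and 0.0459). Their values with it were -0.08 and -0.45 (adjusted p = 0.118 and 0.226). Rap1b was higher with fibronectin (0.14, adjusted p = 0.0443, and 0.06 without it, adjusted p = 0.511). The counts thus mix opposite roles. The median of the list was 0.03 without and 0.01 with fibronectin. Of 20 genes of outside-in signaling and actin linkage, 3 were higher and 3 lower without fibronectin, and 5 higher and 3 lower with it, again beside 20.8% and 27.6% of all genes. Leaving out that library gave 3 higher and 4 lower on plain dishes, beside the 29.1% of that fit. Coro1a, the actin regulator coronin-1A, was higher on both (0.26 and 0.21, adjusted p = 0.0037 and 0.00375). Lcp2, the adaptor SLP-76, was higher on both (0.24 and 0.27, adjusted p = 0.00693 and 0.000666), and Actn1, the actin cross-linker that binds beta chains, was lower on both (-0.29 and -0.27, adjusted p = 0.00455 and 0.000874). Tyrobp, the adaptor DAP12, was lower on both (-0.27, adjusted p = 0.0328, without fibronectin) and fell with fibronectin from 869.4 ± 37.0 to 683.6 ± 18.7 FPKM (SD, n = 3 each, log2 fold change -0.35, adjusted p = 6.72e-05). The medians of this list were -0.0075 and 0.02.

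Of 11 transcription factors known for the promoters of these genes, 0 were higher and 3 lower without fibronectin, and 0 higher and 4 lower with it, where 20.8% and 27.6% of all genes were called in either direction. The list's medians were -0.11 and -0.08, beside 0.0090 and -0.0038 over all genes. Irf8 was lower on both (log2 fold changes -0.34 and -0.30, adjusted p = 0.00298 and 0.002, edgeR), as was Cebpa (-0.42 and -0.42, adjusted p = 0.0298 and 0.000918). Runx3 was lower without fibronectin (-0.41, adjusted p = 0.0232), with a value of -0.36 with it (adjusted p = 0.0632), and Cebpb was lower with fibronectin (-0.47, adjusted p = 5.84e-05), with a value of -0.28 without it (adjusted p = 0.126). Spi1, which encodes PU.1, was at 93.6 to 113.7 FPKM in IgG and 82.2 to 104.3 FPKM upon ITGA5 neutralization without fibronectin (log2 fold change -0.11, adjusted p = 0.431). With fibronectin Spi1 was at 104.0 to 113.3 and 97.3 to 100.3 FPKM (log2 fold change -0.16, adjusted p = 0.0174). Without the library that stood apart, 4 of the 11 were lower without fibronectin, beside 29.1% of all genes.

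Other integrin chains were mostly not called. Of 21, 16 were tested without and 14 with fibronectin, with 1 higher and 1 lower in each, beside 20.8% and 27.6% of all genes called. Itgb7, the leukocyte chain that pairs with alpha-4, was higher on both coatings (log2 fold changes 0.48 and 0.37, adjusted p = 0.00424 and 0.00329, edgeR). Itga8 was lower without fibronectin (-0.40, adjusted p = 0.00716), with a value of 0.08 with it (adjusted p = 0.599), and Itgb5 was lower with fibronectin (-0.30, adjusted p = 0.00107), with a value of -0.24 without it (adjusted p = 0.0692). The target of the antibody, Itga5, had log2 fold changes of 0.15 and 0.07 (adjusted p = 0.0906 and 0.273). Without the library that stood apart, 2 chains were higher and 4 lower without fibronectin, beside 29.1% of all genes. On fibronectin in IgG, 1 of 15 was higher (Itgb7) and 1 lower (Itga8), and no gene of the other pathway lists was called, where 0.449% of all genes were.

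**Figure D4:**
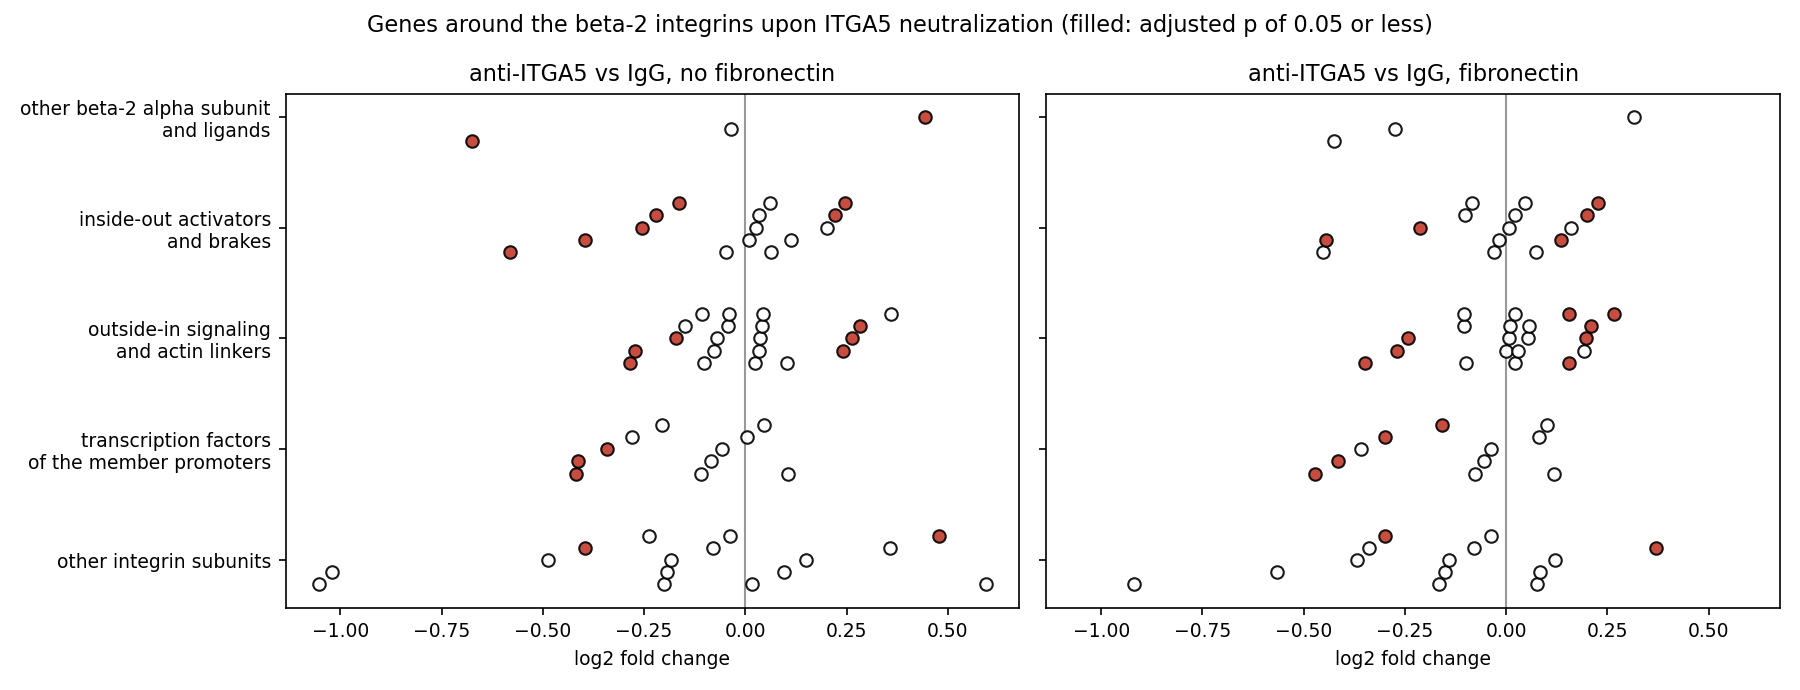
Log2 fold change upon ITGA5 neutralization (x axis) of every tested gene of 5 lists around the beta-2 integrins (rows), without (left) and with fibronectin (right). Circles are genes, filled where the adjusted p is 0.05 or less, with a vertical offset for legibility; called transcription factors lie left of 0, whereas the activation and signaling lists have called genes on both sides.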

How the data were processed

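Libraries were made by the study from oligo(dT)-enriched RNA with a kit that does not mark strand and read as 150 bp pairs. Per the labels and the study's methods, reads were aligned to GRCm38.p6 with TopHat2 2.0.9 and counted with HTSeq 0.6.1, and the list of tools also names Cufflinks 2.1.1. The overlap mode and the annotation release are not given in the sources used here. The authors deposited raw counts per gene and, in a second table, FPKM per gene, which divide each count by gene length and a library total.

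Groups came from the labels. Counts were tested with edgeR 4.0.16 (R 4.3.3): filterByExpr with a minimum count of 10 and minimum total of 15, TMM, and the quasi-likelihood test with Benjamini-Hochberg adjustment over all genes tested, called at 0.05. Each comparison used its own 6 libraries and the interaction all 12. FPKM were compared by exact permutation. CPM use the summed counts of a library.

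Genes named were the 5 members, up to 3 genes per pathway list with the smallest adjusted p among those called in each antibody comparison, and the 3 genes with the highest Pearson r of log2 CPM (prior count 2) to each member. Spi1, Itga5, F11r, Itgad, Thy1, Icam4, Itgb1bp1, Sharpin, Fermt3, Rasgrp2, Rap1b and the genes of marker lists were named beside the rule. The members and lists were chosen with earlier results of these data known. Gene spans and exons came from GENCODE M21 on the same build. Alternatives were DESeq2 1.42.0, its size factors, total counts, other filters, limma 3.58.1 on FPKM, all 12 libraries in one fit, a replicate block and each library left out. Added after the data were seen were DESeq2 without independent filtering, lists without anti-ITGA5 replicate 2 on plain dishes, and Itgam's unshared length. A marker gene of 1 list is not reported here.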

Additional observations from a re-analysis of the deposited data

How the results depend on the processing

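Itgam on both coatings and Itgb2 with fibronectin kept their direction and call under all 17 alternatives. Upon ITGA5 neutralization without fibronectin, calls were lost for Itgal with total counts (log2 fold change -0.24), for Itgb2 with every gene of at least 1 count (-0.21), for Itgal (-0.28) and Itgax (0.54) with limma on log2(FPKM + 1) at a minimum of 0.5 FPKM, for Itgal with a pseudocount of 0.1 (-0.29), and for Itgb2 (-0.20), Itgal (-0.28) and Itgax (0.54) with limma and no filter, which called 1220 genes in place of 2684. With fibronectin, Itgax lost its call with these 3 limma fits (0.29, 0.42 and 0.29, the last with 1871 genes called in place of 3565) and with the 12 libraries fitted jointly (0.44). For fibronectin in IgG, Itgb2 lost its call with the same limma fits (0.20, 0.20 and 0.20; 7, 5 and 17 genes called in place of 58) and the joint fit (0.19; 11 genes), whereas Itgax gained one with every gene of at least 1 count (0.71; 241 genes) and with DESeq2 without independent filtering (0.70; 110 genes), and DESeq2 called 128 genes. For fibronectin upon ITGA5 neutralization, genes called numbered 5 with DESeq2, 5 without its filtering, 327 with every gene of at least 1 count and 2 in the joint fit, in place of 0. For the interaction they numbered 65 with every gene, and 1, 1 and 7 with the limma fits, in place of 3. The cause of these shifts was not tested. With each library left out in turn, log2 fold changes without fibronectin ranged from -0.22 to -0.17 for Itgb2, -0.37 to -0.19 for Itgal, 0.69 to 1.13 for Itgax and -0.19 to 0.0053 for Icam1, with 1473 to 3834 genes called. With fibronectin they ranged from -0.21 to -0.086 for Itgal and 0.30 to 0.53 for Itgax. For fibronectin in IgG they ranged from 0.17 to 0.21 for Itgb2, -0.068 to 0.044 for Itgal and 0.57 to 0.89 for Itgax, with 9 to 101 genes called, and for fibronectin upon ITGA5 neutralization 0 to 4 genes were called. For the interaction the range was -0.13 to 0.066 for Icam1, with 1 to 6 genes called. Itgax had low counts, 66 to 232 per library, and their part in its lost calls was not tested. The overlap with Gm49368 limits the level of Itgam.

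The labels do not say whether same-numbered replicates belong together. Correlations of their deviations ranged from 0.00535 to 0.243, under 0.1 for at least 1 pair in each comparison. Yet 3 of 3, 3 of 3, 3 of 3 and 2 of 3 numbers matched best with their own. Pairing was therefore not settled, and the main tests used none. With the replicate block, Itgal with fibronectin passed the threshold (-0.15, adjusted p = 0.0178), as did Itgax for fibronectin in IgG (0.70, adjusted p = 0.00083), where 397 genes were called, and 3 genes were called for fibronectin upon ITGA5 neutralization.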
